A study of Mus musculus with 10 samples.

Results

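Entry into and exit from mitosis are run by a small set of proteins, several of which cells make in G2 and destroy before the next cycle. A kinase, CDK1, is switched on by its cyclins, other kinases and chromosome proteins carry out the division, and an E3 ligase, the anaphase-promoting complex, then marks the cyclins for degradation. The mRNAs of these proteins rise and fall with the cycle, and in eggs and embryos the cytoplasmic poly(A) tails of several of them control their translation. The genes described here are 10 such genes, chosen by name: Ccnb1, Ccna2 and Cdk1 with the CDK adapters Cks1b and Cks2, the kinase Plk1, Cdc20 and Ube2c of the anaphase-promoting pathway, and the chromosome proteins Top2a and Birc5. All 10 were found among the 13272 genes with reads that passed the filters, and their 5282 reads made up 0.259% of the 2042110 kept reads. Of these reads, 25 were also aligned to another sequence in the table, and 93.9% had a mapping quality of at least 10.

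Undifferentiated P19 cells, a wild-type mouse embryonal carcinoma line, were transfected with scrambled siRNAs (siCtl) or with an siRNA against Larp1 (siLarp1), which encodes an RNA-binding protein of mRNAs that start with an oligopyrimidine motif. RNA was collected at 24 h (3 libraries per treatment) or at 48 h, after another transfection at 24 h (2 libraries per treatment), and poly(A) RNA was sequenced directly on Nanopore flow cells. The comparison asks whether abundance and poly(A) tails of the mitotic mRNAs differ when Larp1 is lowered. In the deposited table the 24 h libraries of either treatment carry the numbers 19, 21 and 22, and the 48 h libraries 24 and 25. The numbers serve as names here, because no source ties them to the replicates of the sample labels, and p-values measure the spread between libraries, which the study's methods call biological replicates. A read counts here when it aligned to an mRNA and its tail estimate was tagged PASS. Kept reads ranged from 112720 to 423398 per library, and each siLarp1 library at 24 h held fewer (119863 to 157054) than each siCtl library (289738 to 423398). The 24 h libraries were sequenced in pools of 1 treatment each, and effects of treatment and of pool cannot be told apart at that time. A single pool held all 4 libraries of the 48 h samples.

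The targeted gene was low in the siLarp1 libraries. Larp1 had 22, 29 and 36 reads in the siCtl libraries and 4, 6 and 3 in the siLarp1 libraries at 24 h, and 19 and 22 against 3 and 3 at 48 h. Per 1000000 kept reads (RPM) these were 75.9, 84.2 and 85.03 against 33.4, 44.9 and 19.1 at 24 h, and 169 and 123 against 18.5 and 24.9 at 48 h, without overlap. Tested over all genes at each time point alone (limma voom), Larp1 itself did not pass. There its log2 fold change was -1.34 ± 0.43 (SE) at 24 h (adjusted p = 0.838) and -2.52 ± 0.56 at 48 h (adjusted p = 0.252). Its log2 fold change as the mean of both time points was -1.93 ± 0.34 (SE; adjusted p = 0.00206, limma voom), and without siLarp1 library 24 it was -1.81 (adjusted p = 0.152). Of 16 markers of pluripotent cells, 15 had reads, with a summed level of 3422 to 4763 RPM over all libraries, and Zfp42 was at 0. Of 16 markers of neurons and other lineages, 11 had reads and summed to 239 to 337 RPM in the siLarp1 libraries and 335 to 380.3 RPM in the siCtl libraries at 24 h, and to 512 to 747 RPM and 470.2 to 621 RPM at 48 h. Neurod1, Neurog2, Sox17 and Col3a1 were among those at 0, and the part of these levels in any result was not tested.

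Direct RNA reads start at the poly(A) tail, so the place where each alignment stops shows the 3′ end of the molecule, up to the annotated end. The alignments are to transcript sequences and cannot run past an annotated end, so ends beyond it cannot be seen. Ends were grouped around the most frequent base (within 30 nt), and groups with at least 10% of a gene's reads were kept, a rule set after the ends had been seen. By this rule 7 of the 10 mRNAs had 1 end and 3 had more, and 13 of the 14 ends carried a poly(A) signal, AATAAA or ATTAAA, in the last 30 bases. For comparison, 82.5% of the 2591 genes with at least 100 reads had either hexamer in the 30 bases before their most frequent end. That share counts each gene at 1 end, while the 14 ends include several of 3 genes. The windows of the mRNAs with several ends, and of Cdk1, are shown because 6 of these 8 ends lie upstream of the annotated transcript end. Each is the 30 bases of the GENCODE transcript sequence up to and including the most frequent end, 5′ to 3′, with the poly(A) signal in capitals.
Ccnb1 end 1: cttcAATAAAggttgtgacttctcatttta
Ccnb1 end 2: ttcaaaATTAAAggtgtgttttaaaaagaa
Ccnb1 end 3: gttgAATAAAatttattggtggaaagcttt
Ccna2 end 1: atattgagAATAAActgatttggaaatctt
Ccna2 end 2: tgtaAATAAAgcatgcaaattaacccttta
Ube2c end 1: taAATAAAttaagtctgcttgaacccttaa
Ube2c end 2: AATAAAtacacattgattgttttgtataaa
Cdk1 end 1: tgaatttaaatataattctgtatatgtgca

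In build GRCm38 coordinates, Ccnb1 (transcript at chr13:100778650-100786570, minus strand, 9 exons) ended at chr13:100779567, chr13:100779192 and chr13:100778739, all in its 3′ UTR, which are 111, 486 and 939 nt after the stop codon. The 3 windows are chr13:100779567-100779596, chr13:100779192-100779221 and chr13:100778739-100778768. The 3 ends, each with the reads that stopped within 30 nt on either side, held 140, 71 and 224 of the 446 Ccnb1 reads. Ccna2 (transcript at chr3:36564865-36572150, minus strand, 8 exons) ended at chr3:36565978 with 185 reads and at chr3:36564865, the annotated end, with 147 of 341 reads. Its windows are chr3:36565978-36566007 and chr3:36564865-36564894, and the ends lie 256 and 1369 nt after the stop codon. Ube2c (transcript at chr2:164769898-164772907, plus strand, 6 exons) had ends 42 nt apart, at chr2:164772865 (window chr2:164772836-164772865) and chr2:164772907 (window chr2:164772878-164772907), with 300 and 372 of 675 reads. Of the 462 Cdk1 reads, 442 stopped around chr10:69338304 (window chr10:69338304-69338333, minus strand), 194 nt after the stop codon and 3158 nt before the annotated end of the 4375 nt transcript at chr10:69335146-69352938, in a window without either hexamer.

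The most frequent ends of the other mRNAs lay within 5 nt of their annotated ends, past which no alignment can run. These were Cdc20 at chr4:118432901, Top2a at chr11:98992947, Plk1 at chr7:122169873, Birc5 at chr11:117855732, Cks1b at chr3:89415472 and Cks2 at chr13:51650655. A further motif was searched in the 100 bases before each end, the cytoplasmic polyadenylation element in the spellings TTTTAT and TTTTAAT (sense strand only; TTTTAAT can overlap an AATAAA that follows it), which in eggs recruits the machinery that lengthens tails. The motif was present before 6 of the 14 ends. These were the middle and last ends of Ccnb1, the first end of Ccna2, and the ends of Cdc20, Cks1b and Cks2. The share over all genes, 17.6% of 2591, counts each gene at its most frequent end only, while some of these genes enter with several ends. A match describes letters and does not show that a protein binds there.

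At the other end of these mRNAs, RefSeq promoter windows (250 bases before to 50 after the start, GRCm38.p6) were given for 9 of the 10 genes. An oligopyrimidine start, here a C at the annotated start followed by at least 4 pyrimidines, was present in 0 of 9 genes and in 3.01% of all 27025 genes. Both Cdc20 and Cks2 begin with a C, and in Cks2 a T and then a G follow it. The start of Cdc20, cgctagcagcggaga (chr4:118437343, minus strand), is shown because it begins with a C that a purine follows, and that of Top2a, tcctaaccgacaagc (chr11:99024189, minus strand), because its pyrimidine run is short and begins with a T. In the 250 bases before the start, CCAAT on either strand was found in 8 of 9 genes (37.5% of all genes). The cell cycle homology sequence TTTGAA, on either strand, was found in 5, namely Cdc20, Cdk1, Cks1b, Top2a and Ube2c, all of which also held CCAAT (18.3% of all genes held TTTGAA and 6.45% held both).

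The abundance of the mitotic mRNAs did not pass the test between siLarp1 and siCtl cells at either time point. Summed over the 10 genes, abundance was 2468, 2614 and 2728 RPM in siCtl libraries 19, 21 and 22 and 2528, 2519 and 2757 RPM in siLarp1 libraries 19, 21 and 22. At 48 h the sum was 2670.3 and 2345 RPM in siCtl libraries 24 and 25 and 2548 and 2538 RPM in the siLarp1 libraries. Neither time point parted the groups, and the siLarp1 mean was 99.9% of the siCtl mean at 24 h and 101% at 48 h. In bulk RNA, fewer dividing cells and less mRNA per dividing cell cannot be told apart.

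Gene by gene, abundance was tested with limma voom over all genes with at least 30 reads, with Benjamini-Hochberg adjusted p under 0.05 as the threshold. All 10 genes were tested at both time points, and 0 of 10 passed at 24 h, where 0 of 4797 genes passed (0%) and 268 had an unadjusted p under 0.05. Likewise 0 of 10 passed at 48 h, with 0 of 2704 genes (0%) and 135 at an unadjusted p under 0.05. None of the 10 had an unadjusted p under 0.05 at either time. The median log2 fold change of the 10 was 0.07 at 24 h (6 above 0, 4 below), beside 0.01 over all genes, and 0.08 at 48 h (7 above 0), beside 0.02. At 24 h the 95% intervals of the 10 genes spanned log2 fold changes from -0.69 to 0.64, and at 48 h from -0.75 to 0.88. A change by 1 on the log2 scale in either direction lay outside all 20 of these intervals.

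**Figure D1:**
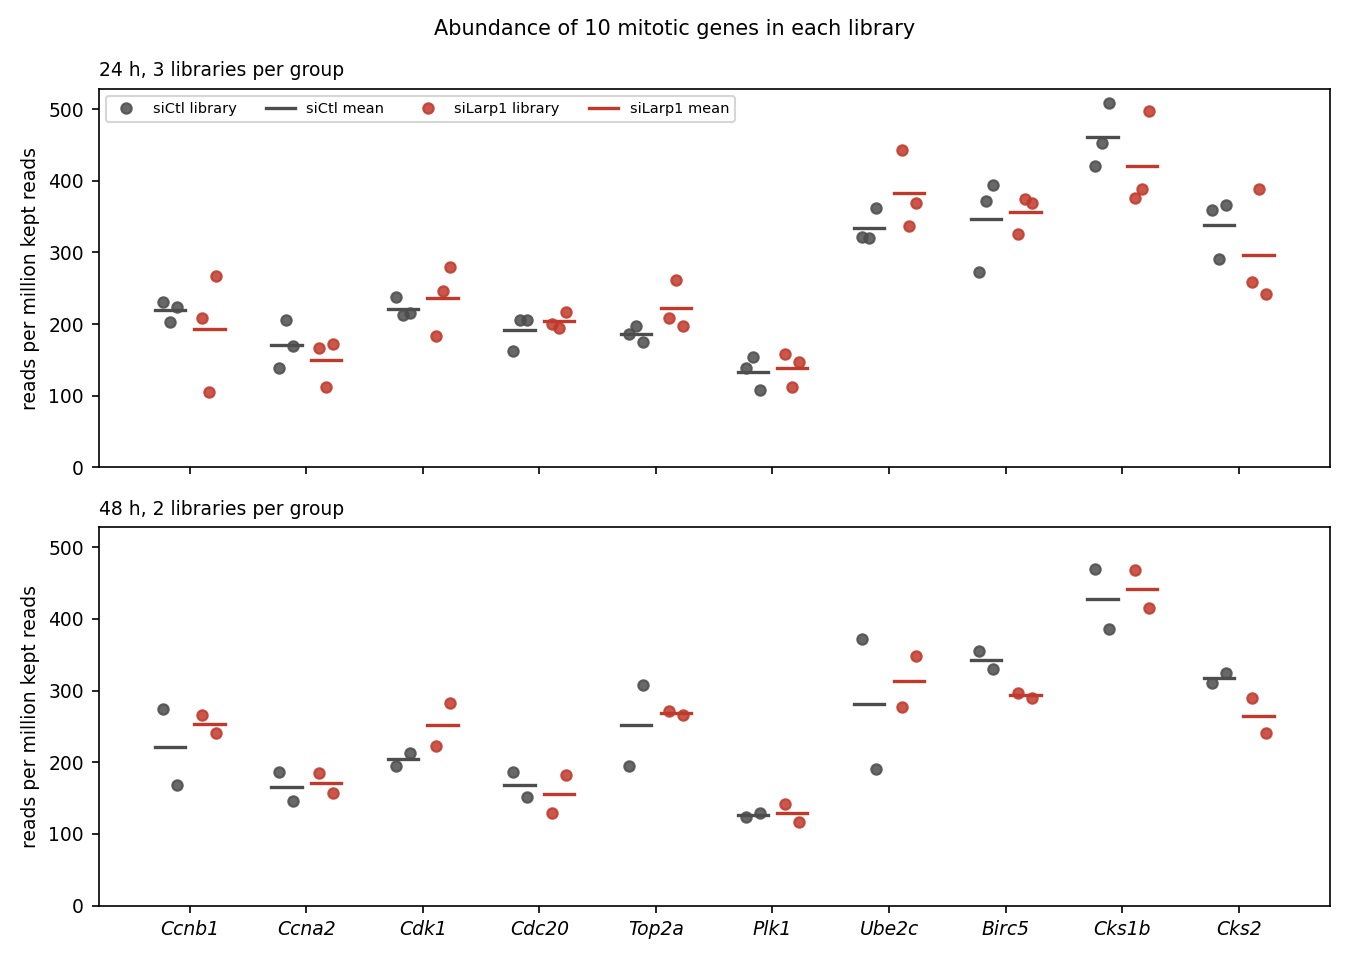
Reads per 1000000 kept reads (RPM, y axis) of each of the 10 genes (x axis) at 24 h (top) and 48 h (bottom), with 1 point per library and a bar at the group mean, siCtl in grey and siLarp1 in red. At 24 h the points of both groups overlap for all 10 genes; at 48 h they do not for Cdk1, Birc5 and Cks2.

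Cdk1 encodes the kinase that drives entry into mitosis. At 24 h, Cdk1 stood at 238, 212 and 215 RPM in siCtl libraries 19, 21 and 22 and at 184, 247 and 280.2 RPM in the siLarp1 libraries of the same numbers. At 48 h, the levels were 195 and 213 RPM in siCtl libraries 24 and 25 and 222 and 282 RPM in siLarp1 libraries 24 and 25. The groups overlapped at 24 h, and at 48 h both siLarp1 libraries were above both siCtl libraries. The Cdk1 log2 fold change was 0.12 ± 0.19 (SE) at 24 h (adjusted p = 0.985) and 0.26 ± 0.26 at 48 h (adjusted p = 0.934). Ccnb1 encodes cyclin B1, the mitotic partner of CDK1. Libraries 19, 21 and 22 gave 231, 203 and 224 RPM of Ccnb1 in siCtl and 209, 105 and 267 RPM in siLarp1 cells at 24 h. Libraries 24 and 25 (48 h) gave 275 and 168 RPM in siCtl and 265 and 241 RPM in siLarp1 cells. The spread was wide, with siLarp1 library 21 lowest of all at 14 reads, and the groups overlapped. In the limma fit the log2 fold changes of Ccnb1 were -0.24 ± 0.22 (SE; adjusted p = 0.963) at 24 h and 0.31 ± 0.27 (adjusted p = 0.922) at 48 h. Ccna2 encodes cyclin A2, which acts in S phase and early mitosis. The Ccna2 level at 24 h was 138, 206 and 170.1 RPM in the siCtl libraries (19, 21, 22) and 167, 112 and 172 RPM in the siLarp1 libraries (19, 21, 22). By 48 h, Ccna2 was at 186 and 145 RPM in siCtl and at 185 and 158 RPM in siLarp1 libraries 24 and 25. Its groups overlapped at both time points. Fitted log2 fold changes of Ccna2, -0.18 ± 0.23 (SE) at 24 h and 0.09 ± 0.29 at 48 h, had adjusted p-values of 0.984 and 0.974.

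Cks1b and Cks2 encode small adapters that bind CDKs and their phosphorylated substrates. At 24 h, Cks1b stood at 421, 453 and 508 RPM in siCtl libraries 19, 21 and 22 and at 375, 389 and 497 RPM in the siLarp1 libraries of the same numbers. At 48 h, the levels were 470.2 and 386 RPM in siCtl libraries 24 and 25 and 469 and 415 RPM in siLarp1 libraries 24 and 25. The siCtl and siLarp1 libraries of Cks1b overlapped at both times. The Cks1b log2 fold change was -0.13 ± 0.15 (SE) at 24 h (adjusted p = 0.977) and 0.08 ± 0.20 at 48 h (adjusted p = 0.966). Libraries 19, 21 and 22 gave 359, 290.5 and 366 RPM of Cks2 in siCtl and 259, 389 and 242 RPM in siLarp1 cells at 24 h. Libraries 24 and 25 (48 h) gave 311 and 325 RPM in siCtl and 290.0 and 241 RPM in siLarp1 cells. For Cks2 both siLarp1 libraries were below both siCtl libraries at 48 h, while at 24 h siLarp1 library 21 was the highest of the 6. In the limma fit the log2 fold changes of Cks2 were -0.21 ± 0.17 (SE; adjusted p = 0.963) at 24 h and -0.25 ± 0.23 (adjusted p = 0.931) at 48 h. Cks2 had the smallest adjusted p of any of the 10 as the mean of both time points together with Ube2c, 0.909.

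Plk1 encodes polo-like kinase 1, which matures the spindle poles and triggers CDK1. The Plk1 level at 24 h was 138, 154 and 109 RPM in the siCtl libraries (19, 21, 22) and 159, 112 and 146 RPM in the siLarp1 libraries (19, 21, 22). By 48 h, Plk1 was at 124 and 129 RPM in siCtl and at 142 and 116 RPM in siLarp1 libraries 24 and 25. The groups overlapped at both times, and 270 reads in all made Plk1 the least read of the 10. Fitted log2 fold changes of Plk1, 0.10 ± 0.24 (SE) at 24 h and 0.03 ± 0.31 at 48 h, had adjusted p-values of 0.988 and 0.998. Cdc20 encodes the activator of the anaphase-promoting complex. At 24 h, Cdc20 stood at 162, 206 and 205 RPM in siCtl libraries 19, 21 and 22 and at 200.2, 194 and 216 RPM in the siLarp1 libraries of the same numbers. At 48 h, the levels were 186 and 151 RPM in siCtl libraries 24 and 25 and 129.6 and 182 RPM in siLarp1 libraries 24 and 25. The groups overlapped. The Cdc20 log2 fold change was 0.10 ± 0.19 (SE) at 24 h (adjusted p = 0.988) and -0.12 ± 0.30 at 48 h (adjusted p = 0.966). Ube2c encodes the ubiquitin-conjugating enzyme that works with this complex. Libraries 19, 21 and 22 gave 321, 319.5 and 361 RPM of Ube2c in siCtl and 442, 336 and 369 RPM in siLarp1 cells at 24 h. Libraries 24 and 25 (48 h) gave 373 and 190.3 RPM in siCtl and 278 and 348 RPM in siLarp1 cells. The lowest library was siCtl 25 and the highest siLarp1 19, and the groups overlapped at both times. In the limma fit the log2 fold changes of Ube2c were 0.18 ± 0.15 (SE; adjusted p = 0.963) at 24 h and 0.29 ± 0.28 (adjusted p = 0.931) at 48 h.

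Top2a encodes the topoisomerase that disentangles sister chromosomes. The Top2a level at 24 h was 186, 198 and 175 RPM in the siCtl libraries (19, 21, 22) and 209, 262 and 197 RPM in the siLarp1 libraries (19, 21, 22). By 48 h, Top2a was at 195 and 308 RPM in siCtl and at 271 and 265 RPM in siLarp1 libraries 24 and 25. The siLarp1 mean was above the siCtl mean at 24 h by less than the groups' joint range. Fitted log2 fold changes of Top2a, 0.26 ± 0.19 (SE) at 24 h and 0.07 ± 0.26 at 48 h, had adjusted p-values of 0.953 and 0.982. Birc5 encodes survivin, a subunit of the chromosomal passenger complex. At 24 h, Birc5 stood at 273, 372 and 394 RPM in siCtl libraries 19, 21 and 22 and at 325, 374 and 369 RPM in the siLarp1 libraries of the same numbers. At 48 h, the levels were 355 and 330.2 RPM in siCtl libraries 24 and 25 and 296 and 290.3 RPM in siLarp1 libraries 24 and 25. Both siLarp1 libraries were below both siCtl libraries at 48 h, and the groups overlapped at 24 h. The Birc5 log2 fold change was 0.05 ± 0.16 (SE) at 24 h (adjusted p = 0.992) and -0.21 ± 0.22 at 48 h (adjusted p = 0.934). Groups without overlap thus occurred for 0 of 10 genes at 24 h, against 10.8% of all genes tested, and for 3 of 10 at 48 h, against 34.1%. As the mean of both time points 0 of 10 passed (0.147% of 5431 genes), with effects from -0.23 to 0.24. The siLarp1 effect at 48 h minus that at 24 h passed for 0 of 10 (0% of genes; 233 genes at an unadjusted p under 0.05), and ranged from -0.26 (Birc5) to 0.55 (Ccnb1).

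**Figure D2:**
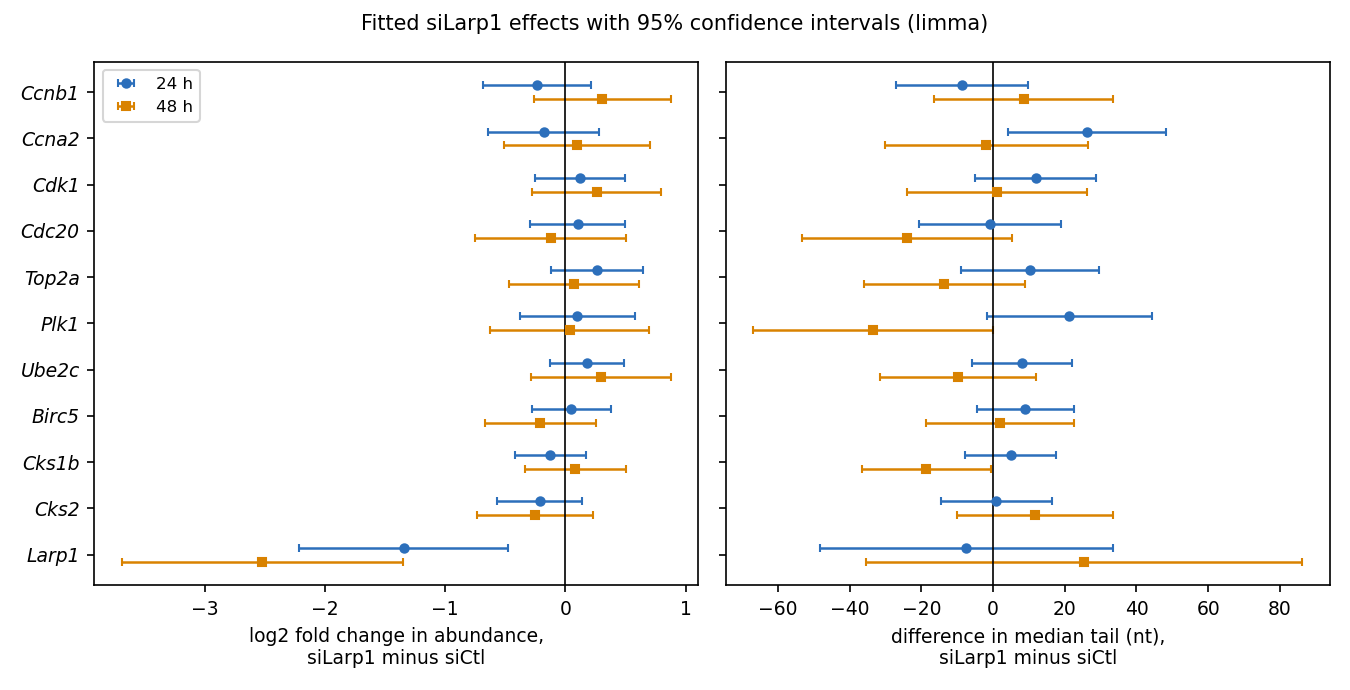
Fitted siLarp1 effects on abundance (left, log2 fold change) and on median tail (right, nt) for the 10 genes and Larp1 (rows), at 24 h (blue circles) and 48 h (orange squares), with 95% confidence intervals from limma. All abundance intervals of the 10 genes cross 0, and those of Larp1 do not, without passing the adjusted threshold at either time. In the right panel the intervals of Ccna2 at 24 h and of Plk1 and Cks1b at 48 h leave 0, also without passing the adjusted threshold.

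Median tails of the 10 mRNAs ran from 101 to 126 nt. A poly(A) tail binds poly(A)-binding proteins, which protect the mRNA and support its translation, and shortens as the mRNA ages. Over all libraries the median tail was 112 nt for the reads of the 10 genes and 102 nt for all kept reads. Among the 2612 genes with at least 100 reads the median of the gene medians was 104 nt (quartiles 96.7 and 112 nt), and 7 of the 10 lay above it. Cdk1 was longest at 126 nt (percentile 94.7), followed by Top2a at 119, Cks2 at 118, Ccnb1 at 115, Cdc20 at 113, Ube2c at 112 and Cks1b at 108 nt. Plk1 at 103 nt, Ccna2 at 102 nt and Birc5 at 101 nt (percentile 39.4) were the shortest. No pair of neighbours in this order kept it in every library: the longer of each pair was above the other in 4 to 8 of 10 libraries, with mean differences of -4.03 to 6.69 nt against SDs of 10.96 to 26.5 nt.

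Pooled over the 10 genes, tails were longer in siLarp1 than in siCtl libraries at 24 h and shorter at 48 h. The pooled median was 111, 110.5 and 110.0 nt in siCtl libraries 19, 21 and 22 and 115, 114 and 117 nt in siLarp1 libraries 19, 21 and 22, a difference of means of 5.02 nt without overlap. At 48 h it was 111 and 115 nt in siCtl libraries 24 and 25 and 103 and 109 nt in the siLarp1 libraries, a difference of -6.97 nt, again without overlap. The same libraries did not part in this way over all kept reads: there the medians were 103, 104 and 102 nt against 103, 101 and 104 nt at 24 h, and 97.1 and 98.6 nt against 97.7 and 103 nt at 48 h. Where each gene counted equally, the mean of the 10 gene medians differed by 6.54 nt at 24 h with overlapping groups and by -8.08 nt at 48 h without overlap. These pooled values are a description, and neither they nor their opposite directions were tested.

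**Figure D3:**
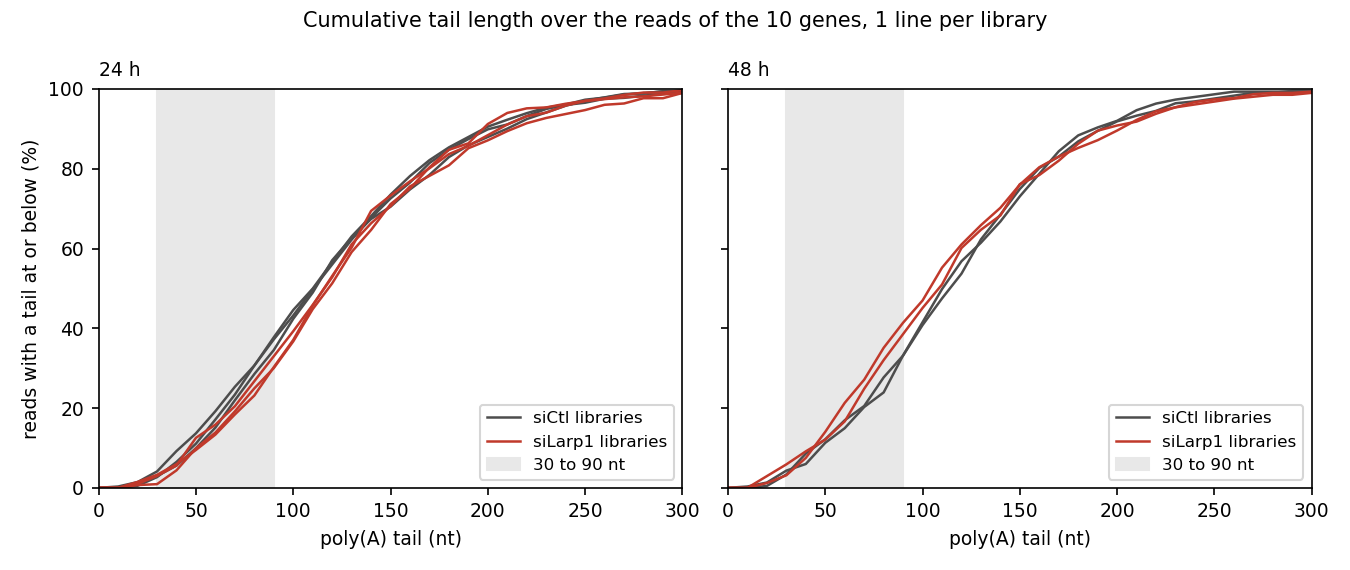
Share of the reads of the 10 genes with a tail at or below the length on the x axis (nt), as a percentage, with 1 line per library (siCtl grey, siLarp1 red) at 24 h (left) and 48 h (right) and the 30 to 90 nt class shaded. From 70 to 120 nt the siLarp1 lines run below the siCtl lines at 24 h and above them at 48 h, and at shorter lengths the lines of both groups cross.

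The pooled difference was also measured at other points of the tail distribution. The length below which the shortest 10% of tails fell differed by 2.56 nt at 24 h, with overlapping groups, and by -2.02 nt at 48 h. The lower quartile was 74.1, 69.5 and 72.3 nt in the siCtl and 78.6, 81.4 and 80.4 nt in the siLarp1 libraries at 24 h, and 81.9 and 76.9 nt against 67.5 and 70.3 nt at 48 h, differences of 8.16 and -10.5 nt. The upper quartile differed by 0.507 nt at 24 h and by -3.98 nt at 48 h. Reads with tails of 30 to 90 nt (the ~60-nt class, a tail with room for few poly(A)-binding proteins) made up 31.6, 33.1 and 35.1% in the siCtl and 30.03, 27.00 and 29.1% in the siLarp1 libraries at 24 h. At 48 h they made up 28.9 and 29.8% and 38.3 and 32.7%. Tails over 90 nt made up 65.5, 62.8 and 62.3% and 67.00, 69.7 and 69.98% at 24 h, and 66.8 and 66.8% and 58.6 and 61.4% at 48 h.

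Single genes did not pass the test. Median tails per library were compared with limma, weighted by reads, over all genes with enough reads. At 24 h 0 of 10 passed (0% of 4492 genes; 262 genes at an unadjusted p under 0.05), and 1 of the 10, Ccna2, had an unadjusted p under 0.05. At 48 h 0 of 10 passed (0% of 2660 genes; 160 at an unadjusted p under 0.05), and Plk1 and Cks1b had an unadjusted p under 0.05. The median difference of the 10 genes was 8.54 nt at 24 h, with 8 of 10 above 0, beside 1.58 nt over all genes. It was -5.93 nt at 48 h, with 6 of 10 below 0, beside 2.85 nt. Groups without overlap occurred for 0 of 10 genes at 24 h (11.6% of genes) and for 6 of 10 at 48 h (33.7% of genes), all 6 with siLarp1 lower (12.9% of genes): Ccna2, Cdc20, Top2a, Plk1, Ube2c and Cks1b.

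**Figure D4:**
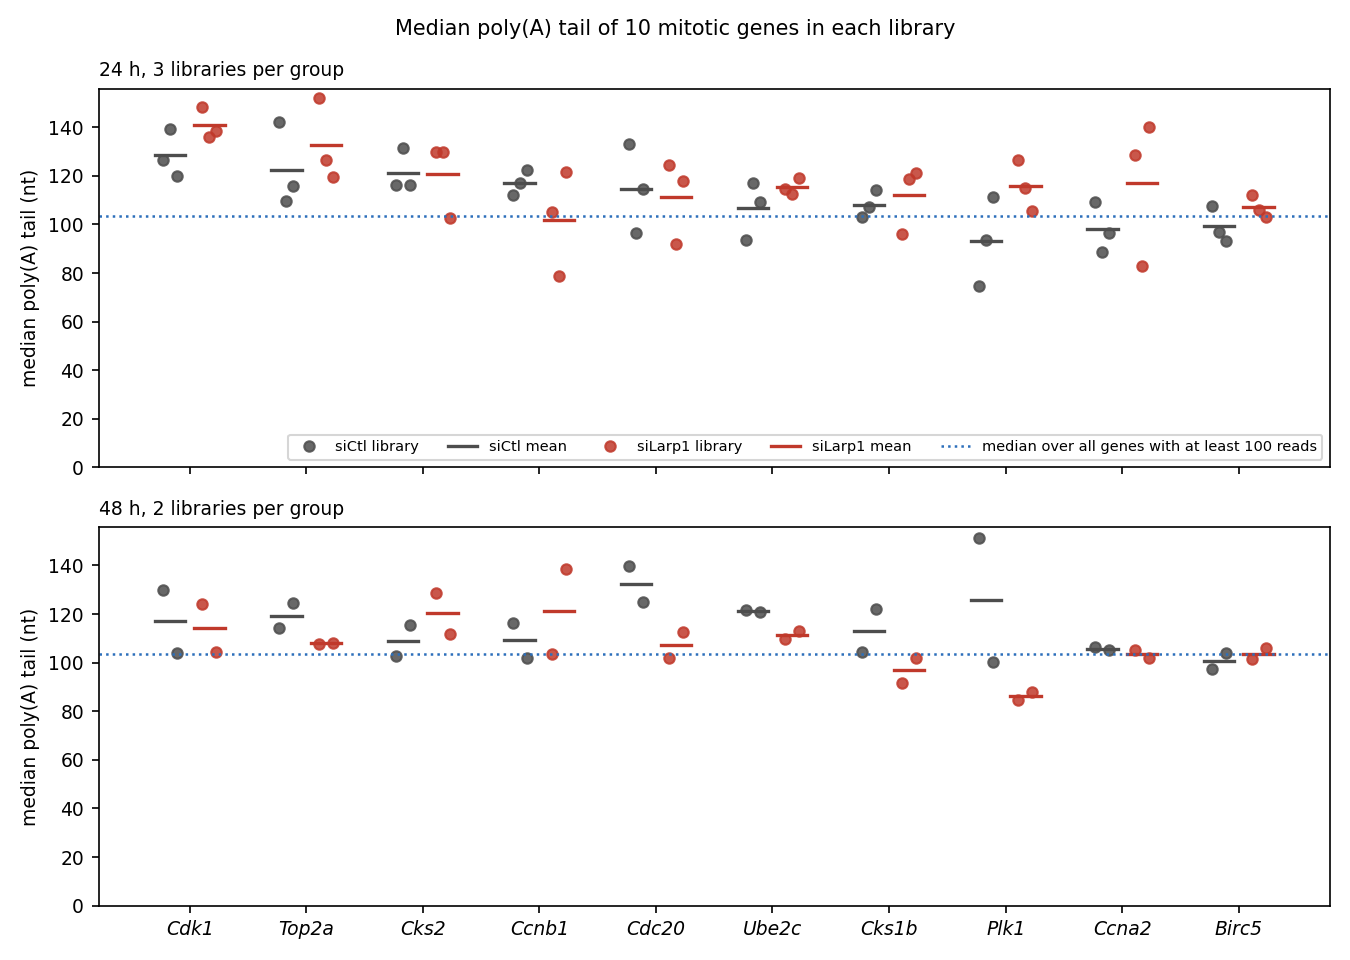
Median poly(A) tail (y axis, nt) of each of the 10 genes (x axis, in the order of their medians over all libraries) at 24 h (top) and 48 h (bottom), with 1 point per library and a bar at the group mean; the dotted line is the median over 2612 genes. The groups overlap for all 10 genes at 24 h, and at 48 h the siLarp1 points of 6 genes lie below both siCtl points.

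The tails of the CDK1 genes come first. Ccna2 tails in libraries 19, 21 and 22 (24 h) had medians of 109, 88.8 and 96.5 nt with siCtl and 128, 82.9 and 140.2 nt with siLarp1. Median tails of Ccna2 at 48 h were 106 and 105 nt in siCtl libraries 24 and 25 and 105 and 102 nt in siLarp1 libraries 24 and 25. At 24 h siLarp1 library 21 held 15 reads and was the lowest of the 6 libraries, while the other two siLarp1 libraries were the highest. Fitted tail differences of Ccna2 were 26.2 ± 10.9 nt (SE) at 24 h and -1.95 ± 14.2 nt at 48 h, with adjusted p-values of 0.793 and 0.999. The Ccna2 difference at 24 h was 11.4 nt with a barcode confidence of at least 0.9, 12.6 nt without siLarp1 library 22 and 38.9 nt without siLarp1 library 21. Median tails of Cdk1 at 24 h were 126, 139 and 120.1 nt in siCtl libraries 19, 21 and 22 and 148, 136 and 138 nt in siLarp1 libraries 19, 21 and 22. At 48 h, Cdk1 had median tails of 129.9 and 104 nt in the siCtl and 124 and 104 nt in the siLarp1 libraries 24 and 25. Cdk1 medians were above the median over all genes in all 10 libraries, and the groups overlapped. The fitted Cdk1 tail difference was 11.9 ± 8.39 nt (SE) at 24 h (adjusted p = 0.908) and 1.05 ± 12.5 nt at 48 h (adjusted p = 0.999). At 24 h, Ccnb1 had median tails of 112, 117 and 122 nt in the siCtl and 105, 78.8 and 122 nt in the siLarp1 libraries 19, 21 and 22. Ccnb1 tails in libraries 24 and 25 (48 h) had medians of 116 and 102 nt with siCtl and 104 and 139 nt with siLarp1. For Ccnb1 the lowest and the highest library were both siLarp1 libraries. With limma, Ccnb1 tails differed between siLarp1 and siCtl by -8.74 ± 9.17 nt (SE; adjusted p = 0.968) at 24 h and by 8.50 ± 12.5 nt (adjusted p = 0.988) at 48 h.

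For the adapters, the fitted differences at 48 h had opposite signs. Median tails of Cks1b at 24 h were 103, 107 and 114 nt in siCtl libraries 19, 21 and 22 and 96.1, 119 and 121 nt in siLarp1 libraries 19, 21 and 22. At 48 h, Cks1b had median tails of 104 and 122 nt in the siCtl and 91.6 and 102 nt in the siLarp1 libraries 24 and 25. Both siLarp1 libraries of Cks1b were below both siCtl libraries at 48 h, closest between siLarp1 library 25 and siCtl library 24. The fitted Cks1b tail difference was 4.88 ± 6.33 nt (SE) at 24 h (adjusted p = 0.977) and -18.6 ± 8.99 nt at 48 h (adjusted p = 0.817). At 24 h, Cks2 had median tails of 116, 131 and 116 nt in the siCtl and 130.0, 129.6 and 103 nt in the siLarp1 libraries 19, 21 and 22. Cks2 tails in libraries 24 and 25 (48 h) had medians of 103 and 115 nt with siCtl and 129 and 112 nt with siLarp1. The groups of Cks2 overlapped at both times, with siLarp1 library 24 the highest at 48 h. With limma, Cks2 tails differed between siLarp1 and siCtl by 0.832 ± 7.66 nt (SE; adjusted p = 0.998) at 24 h and by 11.7 ± 10.9 nt (adjusted p = 0.947) at 48 h. Plk1 had the largest fitted difference of the 10 at 48 h with all libraries. Plk1 tails in libraries 19, 21 and 22 (24 h) had medians of 74.6, 93.4 and 111 nt with siCtl and 127, 115 and 106 nt with siLarp1. Median tails of Plk1 at 48 h were 151 and 100.1 nt in siCtl libraries 24 and 25 and 84.5 and 88.1 nt in siLarp1 libraries 24 and 25. At 24 h the siLarp1 libraries ranked mostly above the siCtl libraries and at 48 h below them, with 14 to 23 reads per library at 48 h. Fitted tail differences of Plk1 were 21.2 ± 11.4 nt (SE) at 24 h and -33.6 ± 16.7 nt at 48 h, with adjusted p-values of 0.821 and 0.825. At 48 h the Plk1 difference was -65.3 nt without siCtl library 25 and -14.2 nt without siCtl library 24. The change of the siLarp1 effect from 24 h to 48 h was -54.8 ± 20.9 nt (SE) for Plk1 (adjusted p = 0.777).

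For Cdc20 and Ube2c the groups overlapped at 24 h and not at 48 h. Median tails of Cdc20 at 24 h were 133, 96.6 and 114 nt in siCtl libraries 19, 21 and 22 and 125, 91.98 and 118 nt in siLarp1 libraries 19, 21 and 22. At 48 h, Cdc20 had median tails of 139.8 and 125 nt in the siCtl and 102 and 113 nt in the siLarp1 libraries 24 and 25. The spread of Cdc20 at 24 h was wider than the difference of the means. The fitted Cdc20 tail difference was -0.878 ± 9.82 nt (SE) at 24 h (adjusted p = 0.998) and -23.9 ± 14.7 nt at 48 h (adjusted p = 0.891). At 24 h, Ube2c had median tails of 93.7, 117 and 109 nt in the siCtl and 115, 113 and 119 nt in the siLarp1 libraries 19, 21 and 22. Ube2c tails in libraries 24 and 25 (48 h) had medians of 122 and 121 nt with siCtl and 109.8 and 113 nt with siLarp1. The 4 libraries of Ube2c at 48 h lay close together. With limma, Ube2c tails differed between siLarp1 and siCtl by 8.09 ± 6.91 nt (SE; adjusted p = 0.951) at 24 h and by -9.91 ± 10.9 nt (adjusted p = 0.972) at 48 h. Top2a tails in libraries 19, 21 and 22 (24 h) had medians of 142, 109.8 and 116 nt with siCtl and 152, 127 and 119.6 nt with siLarp1. Median tails of Top2a at 48 h were 114 and 124 nt in siCtl libraries 24 and 25 and 108 and 108 nt in siLarp1 libraries 24 and 25. The siLarp1 libraries of Top2a were below the siCtl libraries at 48 h. Fitted tail differences of Top2a were 10.2 ± 9.55 nt (SE) at 24 h and -13.6 ± 11.3 nt at 48 h, with adjusted p-values of 0.964 and 0.945. Median tails of Birc5 at 24 h were 108, 96.9 and 93 nt in siCtl libraries 19, 21 and 22 and 112, 106 and 103 nt in siLarp1 libraries 19, 21 and 22. At 48 h, Birc5 had median tails of 97.5 and 104 nt in the siCtl and 101 and 106 nt in the siLarp1 libraries 24 and 25. Birc5 had the narrowest range over the 10 libraries of any of the 10 genes, 93 to 112 nt. The fitted Birc5 tail difference was 9.00 ± 6.75 nt (SE) at 24 h (adjusted p = 0.932) and 1.91 ± 10.4 nt at 48 h (adjusted p = 0.999).

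As the mean of both time points 0 of 10 tails passed (0.0282% of 3547 genes), with differences from -12.4 nt (Cdc20) to 12.1 nt (Ccna2). The siLarp1 effect at 48 h minus that at 24 h passed for 0 of 10 (0% of genes; 186 genes at an unadjusted p under 0.05). It was below 0 for 8 of 10, with a median of -20.5 nt beside 1.43 nt over all genes, and Plk1 and Cks1b had an unadjusted p under 0.05. The 95% intervals of single genes reached 12.8 to 23.05 nt to either side at 24 h and 17.96 to 33.4 nt at 48 h, so differences of the pooled size were not detectable gene by gene at this depth.

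Tail classes were tested gene by gene as well. The ~60-nt share was tested with limma on log2 odds, and 0 of 10 genes passed at 24 h (0.188% of genes), at 48 h (0%; 175 genes at an unadjusted p under 0.05) and as the mean of both (0.239%). At 24 h the mean share went from siCtl to siLarp1 from 40.1% ± 6.69 (SD, n = 3) to 30.2% ± 3.69 (n = 3) for Birc5, the 1 gene of the 10 with an unadjusted p under 0.05 (adjusted p = 0.823). At 48 h it went from 19.1% ± 1.29 (SD, n = 2) to 33.8% ± 3.62 (n = 2) for Top2a and from 29.3% ± 6.59 (SD, n = 2) to 42.03% ± 5.69 (n = 2) for Cks1b, both with an unadjusted p under 0.05 and an adjusted p of 0.745. The mean share was lower in siLarp1 for 7 of 10 genes at 24 h and higher for 7 of 10 at 48 h. The libraries did not overlap for 0 of 10 genes at 24 h (11.4% of genes, in either direction). At 48 h they did not overlap for 5 of 10 (34.7% of genes, in either direction). All 5 had siLarp1 higher: Ccna2, Top2a, Plk1, Cks1b and Cks2. Of these, Ccna2, Top2a, Plk1 and Cks1b were also without overlap in median tail, a measure of the same reads.

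Tails under 30 nt, too short for a stable poly(A)-binding protein complex, were rare. They made up 3.24% of the reads of the 10 genes and 2.68% of all kept reads, from 1.08% for Cks2 (7 of 649 reads, Wilson 95% interval 0.523 to 2.21%) to 7.78% for Plk1 (21 of 270 reads, 5.14 to 11.6%), intervals that cover counting error only. Pooled over the 10 genes the share was 2.94, 4.11 and 2.68% in the siCtl and 2.97, 3.26 and 0.924% in the siLarp1 libraries at 24 h. At 48 h it was 4.32 and 3.34% and 3.15 and 5.88%, and the groups overlapped at both times. In the limma test 0 of 10 genes passed at 24 h (0.188% of genes), at 48 h (0.74%) and as the mean of both (0.589%). Cdk1 had short tails in 0 of 22 and 0 of 38 reads of the siCtl and in 2 of 36 and 3 of 34 reads of the siLarp1 libraries at 48 h (adjusted p = 0.409). On this scale the median effect at 24 h was 0.12 for the 10 genes and 0.73 over all genes, with 0.5 added to each tally. Over all genes it was 0.62 with 0.1 added and 0.40 in a quasi-binomial model of genes with at least 100 reads. At 24 h the siLarp1 libraries held fewer reads than the siCtl libraries, and the part of depth in these medians was not tested. Among all kept reads the share under 30 nt was 2.63 to 3.22% in the siLarp1 and 2.15 to 2.42% in the siCtl libraries at 24 h, and 3.37 and 4.20% and 2.82 and 2.96% at 48 h.

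The use of the 3′ ends printed above was compared for the 3 genes with several ends. The smallest p that the 120 arrangements allow is 0.0167. The last Ccnb1 end held 51.5, 52.2 and 51.1% of its reads in the siCtl and 48, 71.4 and 40% in the siLarp1 libraries at 24 h, and 51.6 and 46.4% against 54.8 and 60.7% at 48 h. The siLarp1 libraries lay on both sides of the siCtl libraries at 24 h, and the difference was 5.13 percentage points as the mean of both time points (exact permutation test within time points, two-sided, p = 0.367, adjusted p = 0.383 over 3 genes). The last Ccna2 end held 37.5, 47.1 and 39.1% and 50, 53.3 and 34.6% at 24 h, and 45 and 46.2% and 58.6 and 42.1% at 48 h. These groups overlapped, and the difference was 4.77 percentage points as the mean of both time points (exact permutation test within time points, two-sided, p = 0.383, adjusted p = 0.383 over 3 genes). The last Ube2c end held 54.8, 60 and 59.9% and 48.1, 53.3 and 52.6% at 24 h, and 54.8 and 52.9% and 48.9 and 52.4% at 48 h. Every siLarp1 library was below every siCtl library of its time point, and the difference was -5.05 percentage points as the mean of both time points (exact permutation test within time points, two-sided, p = 0.0167, adjusted p = 0.05 over 3 genes). The p is the smallest the test can give, the adjusted value was not under 0.05, and the difference was -0.209 points with reads of all quality tags.

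**Figure D5:**
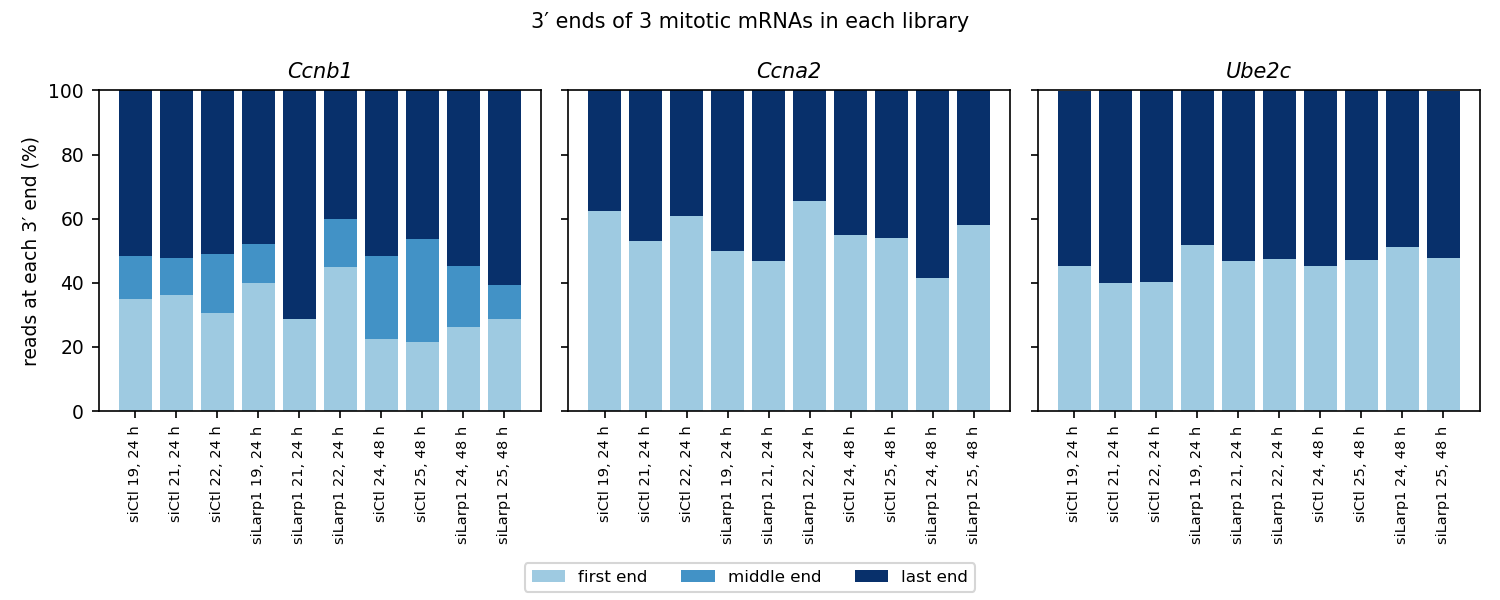
Share of reads (y axis, %) at each 3′ end of Ccnb1, Ccna2 and Ube2c in each of the 10 libraries (x axis), stacked from the first end (light) to the last (dark). The last end takes between 34.6% and 71.4% of the reads in the libraries of Ccnb1 and Ccna2, and between 48.1% and 60% in those of Ube2c.

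Tails were also set against the 3′ end within each gene. Reads at the last Ccnb1 end had a mean library median of 115 nt ± 19.1 (SD, n = 10) and those at the first end 98.5 nt ± 19.1. The last end was longer in 7 of 10 libraries, by 16.7 nt on average (exact permutation test of the paired differences, two-sided, p = 0.0488, adjusted p = 0.146 over 3 genes). Pooled over libraries, the 3 Ccnb1 ends had median tails of 106, 136 and 118 nt in the order of the windows. For Ccna2 the last end differed from the first by -18.1 nt with an SD of 39.9 nt (adjusted p = 0.287, same exact test), and for Ube2c the difference was -5.20 nt (adjusted p = 0.404, same exact test). No gene passed.

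Time in culture was compared within the siCtl libraries, which were in separate pools at 24 h and 48 h and had 1 transfection more at 48 h, so that time, pool and transfection cannot be told apart. For abundance 0 of 10 genes passed, against 0.7% of 5431 genes. The log2 differences ran from -0.41 (Ube2c) to 0.48 (Top2a), and Top2a was the 1 with an unadjusted p under 0.05 (SE 0.22, adjusted p = 0.363). Without siCtl library 25 the differences were 0.16 for Ube2c and 0.10 for Top2a, and without siCtl library 24 they were -0.80 and 0.73. For tails 0 of 10 passed, against 0.0846% of 3547 genes. The tail differences ran from -14.5 nt (Cdk1) to 25.4 nt (Plk1), with a median of 4.54 nt beside -4.92 nt over all genes.

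The rest of the cell cycle was described by lists. Among 81 other mitotic genes, of 67 tested at 24 h and 41 at 48 h, 0 passed in abundance (median log2 fold changes -0.01 and 0.07), and of 65 and 40 tested 0 passed in tail (median differences 4.52 and -1.10 nt). The most read were Ube2s, another enzyme of the anaphase-promoting pathway, with a log2 fold change of -0.01 ± 0.12 at 24 h and 0.05 ± 0.19 at 48 h (SE), the tubulin Tubb4b with -0.07 ± 0.13 at 24 h and 0.01 ± 0.18 at 48 h, the chromatin protein Hmgb2 with 0.09 ± 0.13 at 24 h and -0.01 ± 0.19 at 48 h, and securin, Pttg1, with -0.09 ± 0.19 at 24 h and -0.01 ± 0.24 at 48 h. Among 15 subunits of the anaphase-promoting complex, of 14 tested at 24 h and 9 at 48 h, 0 passed in abundance (median log2 fold changes 0.04 and 0.25), and of 14 and 9 tested 0 passed in tail (median differences -1.08 and 2.02 nt). Its most read subunits, Anapc11, Anapc5, Cdc23 and Cdc26, had log2 fold changes between -0.53 and 0.41. Among 30 genes of G1 and the start of S phase, of 25 tested at 24 h and 21 at 48 h, 0 passed in abundance (median log2 fold changes 0.10 and 0.00), and of 25 and 21 tested 0 passed in tail (median differences 1.55 and 3.53 nt). There, Cdk4, the G1 kinase, had 0.06 ± 0.11 at 24 h and -0.06 ± 0.17 at 48 h, Pcna, the replication clamp, 0.13 ± 0.13 at 24 h and 0.14 ± 0.18 at 48 h, and Mcm5 and Mcm7, subunits of the replicative helicase, -0.05 ± 0.20 at 24 h and -0.13 ± 0.26 at 48 h and 0.06 ± 0.18 at 24 h and 0.00 ± 0.27 at 48 h.

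Cell-cycle inhibitors and p53 targets were mostly too low to test. Of 20 such genes 18 had reads, and of 5 tested at 24 h and 3 at 48 h, 0 passed in abundance (median log2 fold changes 0.11 and 0.29), and of 4 and 3 tested 0 passed in tail (median differences -3.68 and 6.85 nt). Bax, a cell death gene, had a log2 fold change of 0.11 ± 0.18 at 24 h and -0.37 ± 0.27 at 48 h, and Ccng1, a p53 target, 0.42 ± 0.29 at 24 h and 0.29 ± 0.39 at 48 h. Mdm2, which restrains p53, had -0.46 ± 0.61 at 24 h and 0.74 ± 0.52 at 48 h, and the CDK inhibitor Cdkn2d had -0.45 ± 0.57 at 24 h. Among 6 partners of Cks1b and Cks2, of 5 tested at 24 h and 3 at 48 h, 0 passed in abundance (median log2 fold changes -0.21 and 0.08), and of 5 and 3 tested 0 passed in tail (median differences -3.26 and 6.50 nt). Skp1a and Rbx1 of the SCF ligase had -0.11 ± 0.20 at 24 h and 0.08 ± 0.22 at 48 h and -0.21 ± 0.15 at 24 h and -0.23 ± 0.22 at 48 h, Cul1 0.32 ± 0.31 at 24 h and 0.45 ± 0.56 at 48 h, and Cdk2 -0.34 ± 0.47 at 24 h. Over all genes the medians were 0.01 and 0.02 in abundance and 1.58 and 2.85 nt in tail.

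Among the pluripotent markers, of 10 tested at 24 h and 8 at 48 h, 0 passed in abundance (median log2 fold changes 0.17 and 0.20), and of 10 and 8 tested 0 passed in tail (median differences -5.91 and 0.551 nt). Pou5f1, the most read, had a log2 fold change of 0.10 ± 0.08 at 24 h and 0.19 ± 0.09 at 48 h with siLarp1, and Dnmt3b 0.00 ± 0.19 at 24 h and 0.21 ± 0.35 at 48 h. Within the siCtl libraries 3 of 12 passed between 24 h and 48 h, against 0.7% of all genes: Nanog rose by 1.90 ± 0.41 (adjusted p = 0.00553) and Tdgf1 by 1.08 ± 0.22 (adjusted p = 0.00247) on the log2 scale, and Utf1 fell by 1.27 ± 0.23 (adjusted p = 0.000681). Without siCtl library 25 these calls were lost (adjusted p = 0.148 for Nanog, 0.257 for Tdgf1 and 0.727 for Utf1, with a Utf1 difference of -0.50), and the genes called over the whole table went from 38 to 3. The Nanog call was also lost without siCtl library 21 (adjusted p = 0.102) and without siCtl library 24 (adjusted p = 0.0709). With limma trend on log2 RPM in place of voom, the calls of Nanog, Tdgf1 and Utf1 were lost as well (adjusted p = 0.0733, 0.0755 and 0.0707). With only the most-read transcript of each gene, Nanog did not pass (adjusted p = 0.0667, limma voom). Among the markers of other lineages, of 3 tested at 24 h and 2 at 48 h, 0 passed in abundance (median log2 fold changes -0.14 and 0.13), and of 3 and 2 tested 0 passed in tail (median differences -23.6 and -10.8 nt). T, the mesoderm factor brachyury, rose by 2.33 ± 0.34 (adjusted p = 7.9e-06) in siCtl from 24 h to 48 h, a call also lost without siCtl library 25 (adjusted p = 0.257). Vim had -0.52 ± 0.20 at 24 h and -0.04 ± 0.24 at 48 h with siLarp1, Tubb3, a neuronal tubulin, had -0.14 ± 0.38 at 24 h, and Acta2 had 9 reads in all.

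Finally, the genes whose abundance most followed the sum of the 10 were looked for among 955 other genes with at least 300 reads. Over the 10 libraries the highest Pearson correlations of log2 RPM were 0.93 for Fth1, 0.90 for Slc25a3, 0.87 for Uqcr10, 0.81 for Mdh2 and 0.78 for Trh. These are the extremes of 955 correlations over libraries that share pools and depth, and the sum itself ranged from 2345 to 2757 RPM.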

How the data were processed

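Poly(A) RNA of 10 libraries was sequenced directly. Per the study's methods, the authors called bases with Guppy, assigned barcodes with Deeplexicon, aligned reads to mm10 with GENCODE vM17 using minimap2 (version 2.20 in the submitters' processing notes) and estimated tails with Nanopolish. The deposited table holds 1 row per alignment with its tail length in nt, the confidence of its barcode call (a fraction) and its mapping quality (a score), and was not filtered by the authors. Alignments (2652217) were restricted to mRNAs with a PASS tag, without pseudogene families and mitochondrial transcripts (2042110 kept). Kept alignments, called reads here, were counted per gene and library and scaled to reads per 1000000 kept reads (RPM). RPM was not divided by length since each alignment comes from 1 molecule. A read aligned to more than 1 sequence counts once per kept alignment.

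Genes needed at least 30 reads and reads in at least 2 libraries per group, and at least 3 reads in a library for a median tail. Abundance was tested with limma voom, read-weighted median tails with limma, and class shares (under 30 nt; 30 to 90 nt) with limma on log2 odds after adding 0.5, all over all genes with Benjamini-Hochberg adjustment (limma 3.58.1, R 4.3.3). All tests were two-sided. Simulated data were used to check only the 24 h fits of abundance, median tails and the share of 30 to 90 nt. Shares at 3′ ends were compared with exact permutation tests (SciPy 1.17.1). Sequences were read from GENCODE vM21 transcripts (GRCm38) and from RefSeq promoters. The vM21 coordinates of the most-read transcript of each mitotic gene matched the deposited ones. Those of the other genes, used for the shares of motifs over all genes, were not compared. The genes and lists were chosen with earlier results of these data known, the most read 4 genes of each list were named, and Nanog was named as well. The value of 1 listed marker is not reported here. Alternatives changed the reads kept, filters, scaling, weights, class bounds, the model and the libraries used.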

Additional observations from a re-analysis of the deposited data

Results flagged for a closer look

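Pooled over the reads of the 10 mitotic genes, every siLarp1 library lay on 1 side of every siCtl library at 24 h and on the opposite side at 48 h, in 3 related measures of the same tails. The median tail differed by 5.02 nt at 24 h and by -6.97 nt at 48 h (siLarp1 minus siCtl). The share of tails of 30 to 90 nt differed by -4.55 percentage points at 24 h and by 6.10 at 48 h, and the share over 90 nt by 5.41 at 24 h and by -6.78 at 48 h. These measures are listed because their groups differed, and neither the pooled values nor the difference between the time points was tested. With 3 libraries per group, full separation allows no two-sided exact permutation p below 0.1, and with 2 none below 0.333. For single genes, median tails parted without overlap in 11.6% of genes at 24 h and in 33.7% at 48 h. In the gene by gene fits the corresponding change of the tail effect passed for 0 of 10 genes. The pooled median stood above that of all kept reads by 7.50 nt (siCtl) and 12.9 nt (siLarp1) at 24 h, and by 14.9 and 5.41 nt at 48 h. Treatment and barcode pool coincided at 24 h and did not at 48 h, and the part of the pool was not tested.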

How the results depend on the processing

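No mitotic gene passed in any of 296 refitted comparisons, and of 2887 gene effects recomputed 162 moved by 1 SE or more. The smallest adjusted p of a mitotic gene was 0.0586 (limma, short-tail class bounded at 20 nt, 24 h). The pooled median tail difference at 24 h was 3.62 nt with a barcode confidence of at least 0.9 and 6.54 nt, with overlapping groups, as the mean of the gene medians. Over leave-one-out fits it ran from 4.22 to 5.57 nt at 24 h and from -9.72 to -4.22 nt at 48 h. The share of tails over 90 nt at 48 h differed by -4.91 percentage points with all quality tags. The Ccnb1 last-end difference turned to -0.386 points with a mapping quality of at least 10, and that of Ube2c was -0.209 points with all quality tags (p = 0.883, exact permutation test). The cause was not tested.

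Counts of all genes that passed moved more. Over alternatives other than leaving out a library they ran from 0 to 25 for abundance at 24 h, 0 to 8 at 48 h, 2 to 31 for the mean of both, 0 to 8 for the change between times and 8 to 64 between the siCtl times. For tails they ran from 0 to 11 at 24 h, 0 to 1 at 48 h, 0 to 14 for the mean of both, 0 to 1 for the change and 0 to 17 between the siCtl times. For the share under 30 nt they ran from 0 to 54, 0 to 53 and 16 to 55, and for the ~60-nt share from 0 to 11, 0 to 1 and 7 to 16 (24 h, 48 h, mean of both). Leaving out 1 library moved them as well. The counts ran from 0 to 8, 0 to 1, 0 to 12 (8 with all libraries), 0 to 0 and 3 to 66 (38) for the 5 abundance comparisons in the order above, and 0 to 3, 0 to 3, 0 to 4 (1), 0 to 0 and 0 to 14 (3) for tails. They ran from 0 to 4 (9), 0 to 1 (20) and 5 to 45 (32) for the share under 30 nt and from 4 to 15 (9), 0 to 0 and 7 to 18 (13) for the ~60-nt share. With the library number as a replicate block 0 mitotic genes passed, against 0 without it, while the abundance counts rose to 25 at 24 h and 8 at 48 h. Deviations of same-numbered libraries correlated at 0.02, 0.13 and 0.13 at 24 h and 0.13 at 48 h. Each library correlated best with its own number, a hint from the data and not the design. For siCtl library 19 the values were close, 0.019 with siLarp1 library 19 and 0.009 with siLarp1 library 22. Deviations were taken from group means, so the correlations within a time point are not independent of each other. At 24 h libraries of the same number also carried the same barcode in both treatments. At 48 h, with 2 libraries per group, every correlation was 0.125 or -0.125, so the best match there rests on a sign. Groups of 3 or 2 libraries and 14 to 23 Plk1 reads per library at 48 h limit what single genes can show.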
